A study of Mus musculus with 6 samples.

Results

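The genes described here are 10 conserved targets of the transcriptional coactivators YAP and TAZ that lie outside the CCN family of secreted matrix proteins. They are *Ankrd1*, *Axl*, *F3*, *Crim1*, *Fjx1*, *Nt5e*, *Dock5*, *Arhgef17*, *Nuak2* and *Myof*, and they were taken by symbol from a widely used YAP/TAZ target signature, by a rule that uses no measured value. Each was matched to 1 Ensembl identifier in GENCODE release M21, and all 10 were found among the 26579 genes of the count matrix. RNA-Seq was carried out on whole skin biopsies of the dorsal neck from 3 wild type (WT) and 3 YAP2-5SA-∆C transgenic (TG) mice, all female littermates at 33 days of age. The transgene, as its name gives, is a YAP2 with serine to alanine substitutions and a truncated C terminus. It is active in basal keratinocytes that express keratins 5 and 14, while the libraries hold the RNA of every cell type in the biopsy. The TG mice were taken when the skin phenotype first became visible. No other genotype, treatment or age was measured.

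YAP and TAZ do not bind DNA themselves. When the Hippo kinases leave them unphosphorylated they enter the nucleus and bind TEAD factors, which recognise a short core motif, often together with AP-1, and the bound genes are transcribed. In skin, YAP is known for its part in the proliferation of basal keratinocytes. Among the 10 genes, *Axl* encodes the receptor tyrosine kinase of the ligand Gas6, *F3* tissue factor, the starter of blood coagulation, and *Crim1* a transmembrane protein with cysteine-rich repeats that binds bone morphogenetic proteins. *Nt5e* encodes the ectonucleotidase CD73, which makes adenosine outside the cell, and *Myof* myoferlin, a membrane protein of the ferlin family that takes part in membrane repair and fusion. *Fjx1* is the homologue of a Drosophila Golgi kinase that acts on the Fat and Dachsous cadherins. Within the cell, *Nuak2* encodes a kinase related to AMPK, *Dock5* an exchange factor of the GTPase Rac and *Arhgef17* another guanine nucleotide exchange factor. *Ankrd1* encodes an ankyrin repeat protein of the nucleus and of the muscle sarcomere.

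Promoters were read to place these genes in the TEAD and AP-1 setting, before turning to their counts. The promoter table of RefSeq (GRCm38.p6), with 250 bases before and 50 after each start, held 6 of the 10 genes: *Ankrd1*, *Axl*, *F3*, *Crim1*, *Nt5e* and *Myof*. Both strands were searched for the TEAD core GGAATG and for the AP-1 motif TGANTCA, which do not overlap each other in these 6 promoters. The TEAD core was found in 3 of the 6, against 14.7% of the 32851 promoters in the table. Of 9 further genes of the same signature held by the table, 4 had the TEAD core. The AP-1 motif was found in 1 of the 6, against 7.81% of all promoters. The stretches around these matches are shown with the matched letters in capitals, each written 5′ to 3′ on the strand of its gene.
Ankrd1, chr19:36120037-36120066, minus strand: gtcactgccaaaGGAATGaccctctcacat
Ankrd1, chr19:36119950-36119979, minus strand: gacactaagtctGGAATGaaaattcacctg
Axl, chr7:25788941-25788983, minus strand: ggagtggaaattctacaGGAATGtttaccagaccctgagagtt
Crim1, chr17:78200149-78200194, plus strand: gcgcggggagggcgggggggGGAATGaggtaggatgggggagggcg
F3, chr3:121723371-121723428, plus strand: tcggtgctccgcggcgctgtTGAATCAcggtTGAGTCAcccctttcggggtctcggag

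*Ankrd1* held the TEAD core at 2 places and *F3* held the AP-1 motif at 2 places, while *Axl* and *Crim1* held a single TEAD core. GENCODE M21 places both *Ankrd1* matches within the 5′ UTR of a longer annotated *Ankrd1* transcript and annotates no exon at the *Axl* and *Crim1* stretches. The *F3* stretch overlaps an exon of a gene model on the opposite strand. No match was found in these windows for *Nt5e* and *Myof*, which says only that these letters are not there. A match of letters is a description and no measurement of binding. The paper cites work that found such motifs more in enhancers than in promoters, and enhancers were not searched here.

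**Figure D1:**
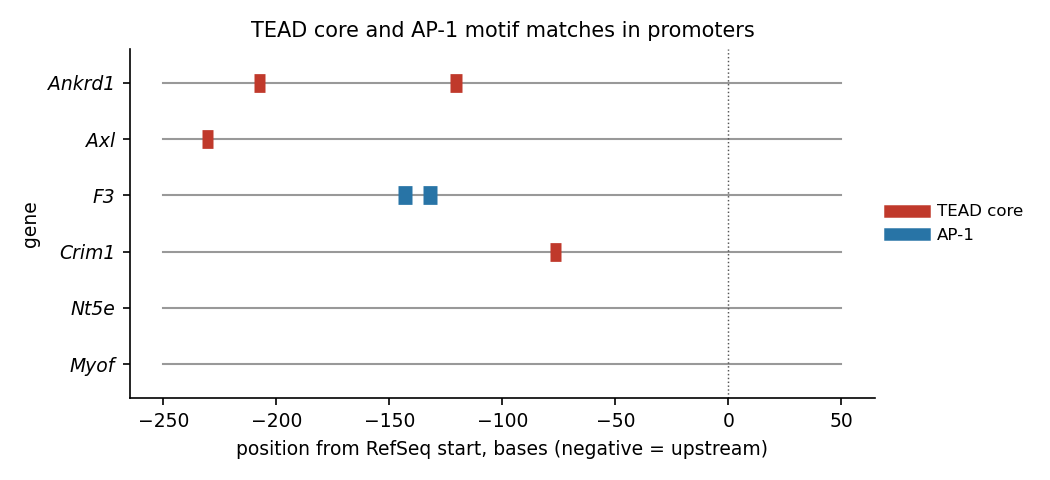
Positions of the TEAD core (red) and the AP-1 motif (blue) in the promoters of the 6 genes held by the RefSeq table, in bases from the RefSeq start, with upstream bases negative. *Ankrd1*, *Axl* and *Crim1* hold the TEAD core, *F3* holds 2 neighbouring AP-1 matches, and *Nt5e* and *Myof* hold neither.

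The libraries held between 11225705 and 19505036 counts, of which mitochondrial genes took 19.3% to 23.1%, so that 1 read was worth between 0.0523 and 0.0951 CPM, the count scaled to the library total. Endogenous *Yap1*, the check of the transgene, had a log2 fold change of 0.06 (SE 0.07, FDR = 0.635), with 0.027 without WT replicate 2 and 0.13 without WT replicate 1, and whether reads of the transgene could be counted on this gene is not given in the sources used here. Each of the 58 marker genes of 10 cell types found in the matrix had at least 23 counts in every library, so no marker was at 0. TG replicate 2 stood apart from the other libraries in its hair shaft and inner root sheath markers, whose summed level was 9.51% of the WT mean. All CPM are scaled with TMM, all fold changes are TG over WT, and FDR is the Benjamini-Hochberg adjusted p of the quasi-likelihood test of edgeR over the 15102 genes tested. Nothing in the labels says more about the replicates than that they are separate mice, so the tests measure the spread between these 6 mice.

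Of the 10 target genes, 9 passed the filter of 1 CPM in 3 libraries and were tested, and 1 passed an FDR of 0.05. That gene was *Nt5e*, which fell in the TG skin. No target gene rose at this threshold. Among all genes tested 1.91% were called in either direction, 1.44% as higher and 0.464% as lower. By value alone 5 of the 9 genes were higher in TG skin (*Axl*, *F3*, *Crim1*, *Nuak2* and *Myof*) and 4 were lower (*Fjx1*, *Nt5e*, *Dock5* and *Arhgef17*). The median log2 fold change of the 9 was 0.11, with −0.01 over all genes tested. With each library left out, the median of the target genes ranged from 0.026 to 0.15. At an unadjusted p below 0.05 the 4 lower genes all passed, where 13.0% of all genes passed as lower, and 2 higher genes, *Axl* and *Myof*, passed, where 13.3% of all genes passed as higher. In these same 6 genes the WT and TG libraries did not overlap. Over all genes tested, 18.2% had every TG library below every WT library and 15.5% had every TG library above. With 3 mice against 3, an exact two-sided permutation test cannot go below p = 0.1, which is the value of each of these 6 genes.

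**Figure D2:**
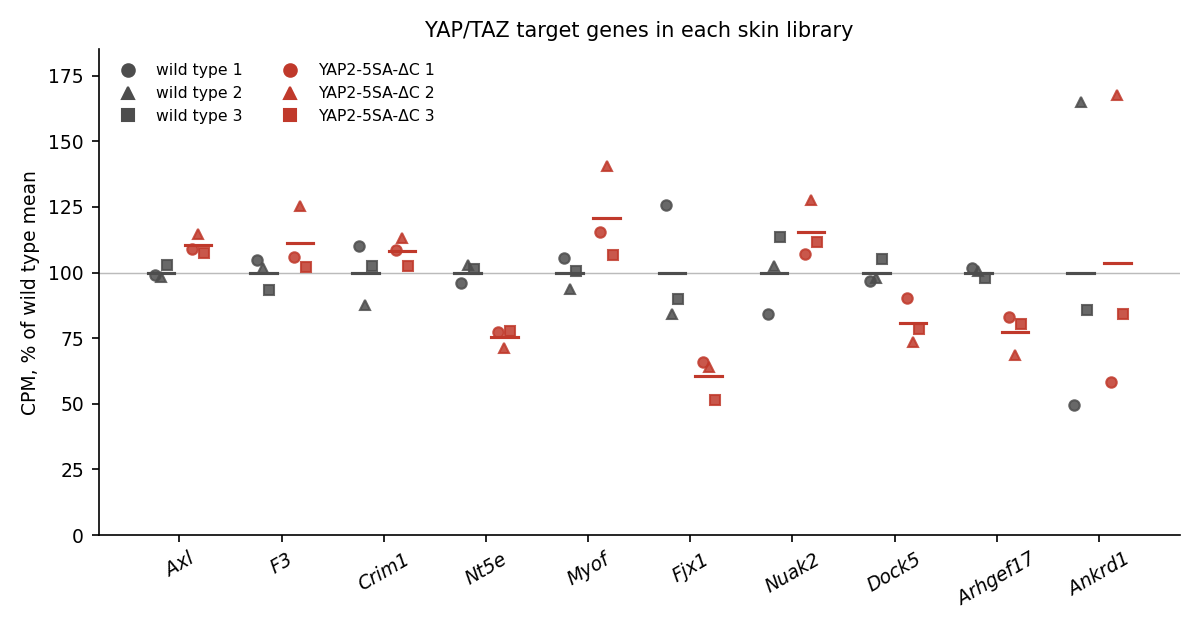
CPM of each of the 10 target genes in each library, as a percentage of the WT mean of that gene, with grey for WT, red for TG, a symbol for each replicate number and a line at the group mean. The WT and TG libraries of *Axl*, *Nt5e*, *Myof*, *Fjx1*, *Dock5* and *Arhgef17* do not overlap, and those of *Ankrd1* range widely in both groups.

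*Nt5e* (ENSMUSG00000032420, chr9:88327197-88372092, plus strand, GRCm38) gave the clearest difference. Its level was 48.5, 51.9 and 51.2 CPM in WT replicates 1, 2 and 3 and 39.0, 35.9 and 39.3 CPM in TG replicates 1, 2 and 3. All 3 TG libraries lay below all 3 WT libraries, and both groups were narrow, with means of 50.5 ± 1.79 and 38.1 ± 1.84 CPM (SD, n = 3 each). *Nt5e* fell, with a log2 fold change of −0.41 (SE 0.06, FDR = 0.0414), which is a change of −24.6% with a 95% interval from −32.2% to −16.2%. Voom also called *Nt5e* (FDR = 0.0480), and so did the likelihood-ratio test of edgeR (FDR = 0.0435). A quasi-likelihood fit with the replicate number as a block did not call *Nt5e* (FDR = 0.170). With single libraries left out the log2 fold change of *Nt5e* kept between −0.43 and −0.35, but its FDR ranged from 0.0368 to 0.186 and stayed below 0.05 only without TG replicate 2. The FDR was 0.0639, 0.186 and 0.144 without WT replicates 1, 2 and 3, and it was 0.0709 and 0.0906 without TG replicates 1 and 3.

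*Axl* (ENSMUSG00000002602, chr7:25757273-25788705, minus strand) moved the other way. It was measured at 123, 122 and 127 CPM in the WT libraries and at 135, 142 and 133 CPM in the TG libraries. Every TG library was above every WT library by a small margin. The level was 10.3% higher in TG skin, with a 95% interval from 0.882% to 20.6%, and the log2 fold change of 0.14 (SE 0.05) did not pass the threshold (FDR = 0.158).

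*Myof* (ENSMUSG00000048612, chr19:37899036-38043577, minus strand) was measured at 104, 92.5 and 99.0 CPM in WT and at 114, 138 and 105 CPM in TG skin. The groups did not overlap, but TG replicate 3 lay close to WT replicate 1 and TG replicate 2 lay far above the rest. *Myof* had a log2 fold change of 0.27 (SE 0.11, FDR = 0.168), and without TG replicate 2 it was 0.17 (FDR = 0.237).

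*F3* (ENSMUSG00000028128, chr3:121723537-121735048, plus strand) had 34.3, 33.4 and 30.6 CPM in WT and 34.7, 41.1 and 33.5 CPM in TG skin. TG replicates 1 and 3 lay within or next to the WT range and only TG replicate 2 was above it by a wide margin. The log2 fold change of *F3* was 0.15 (SE 0.10, FDR = 0.355), and it was 0.072 (FDR = 0.669) without TG replicate 2.

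*Crim1* (ENSMUSG00000024074, chr17:78200248-78376592, plus strand) overlapped between the groups, with 63.3, 50.5 and 58.9 CPM in WT and 62.5, 65.1 and 59.1 CPM in TG skin. Its WT libraries were more spread than its TG libraries. The difference was 8.11% with a 95% interval from −7.14% to 25.9% (FDR = 0.475), so a rise of the size measured for *Axl* was not separable from no change. On the log2 scale *Crim1* differed by 0.11, and by 0.19 without WT replicate 1 and 0.026 without WT replicate 2. The gene shares 123 exon bases, 2.05% of its exon length, with *Fez2* on the opposite strand, and the strand setting of the counting is not given in the sources used here.

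*Fjx1* (ENSMUSG00000075012, chr2:102449366-102452499, minus strand) had the largest change by size among the 9 genes tested. It was measured at 10.4, 6.96 and 7.42 CPM in WT and at 5.45, 5.30 and 4.24 CPM in TG skin, from 189, 133 and 78 counts and 98, 90 and 68 counts. All TG libraries were below all WT libraries, and WT replicate 1 stood well above the other WT libraries. Its log2 fold change was −0.73 (SE 0.19, FDR = 0.0758), which is a difference of −39.5% with a 95% interval from −55.6% to −17.6%. Without WT replicate 1 it was −0.52 (FDR = 0.120). The likelihood-ratio test of edgeR called *Fjx1* as well as *Nt5e* (FDR = 0.0100 for *Fjx1*), and that test called 4.87% of all genes as lower. Voom did not call *Fjx1* (FDR = 0.0858), and called 0.417% of all genes as lower.

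Of the 3 genes of GTPase and kinase signalling within the cell, both exchange factors were lower in TG skin without passing the threshold, and the kinase was not. *Arhgef17* (ENSMUSG00000032875, chr7:100869752-100932107, minus strand) was measured at 51.8, 51.1 and 49.8 CPM in WT and at 42.3, 34.9 and 40.8 CPM in TG skin. Its WT libraries were nearly equal and all TG libraries were below them. The fitted log2 fold change was −0.37 (SE 0.08, FDR = 0.0621), which is a difference of −22.7%. An annotated microRNA, *Mir3102*, shares 104 bases, 0.963% of the exon length of *Arhgef17*.

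*Dock5* (ENSMUSG00000044447, chr14:67752135-67933442, minus strand) had 36.1, 36.6 and 39.3 CPM in WT and 33.8, 27.4 and 29.3 CPM in TG skin. TG replicate 1 came closest to the WT libraries and no library overlapped. The log2 fold change of *Dock5* was −0.31 (SE 0.09, FDR = 0.0965), which is a difference of −19.2%, and without TG replicate 2 it was −0.23 (FDR = 0.207).

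*Nuak2* (ENSMUSG00000009772, chr1:132316126-132333488, plus strand) had 10.5, 12.8 and 14.2 CPM in WT and 13.3, 15.9 and 13.9 CPM in TG skin. The groups overlapped, with WT replicate 3 above TG replicates 1 and 3. Its log2 fold change was 0.21 (SE 0.13, FDR = 0.356) with a 95% interval from −0.11 to 0.53. It was 0.10 without WT replicate 1 and 0.32 without WT replicate 3.

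*Ankrd1* (ENSMUSG00000024803, chr19:36111961-36120099, minus strand), often used as a readout of YAP activity, was too low in whole skin to be tested. It had 6, 21 and 6 counts in the WT libraries and 7, 19 and 9 counts in the TG libraries. The highest library was replicate 2 in each group, and the groups covered the same range, with means of 0.67 ± 0.39 and 0.69 ± 0.38 CPM (SD, n = 3 each). Fitted without the filter, its log2 fold change was 0.015 with a 95% interval from −1.21 to 1.24, so a difference within that interval was not detectable with these counts and this spread between mice.

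**Figure D3:**
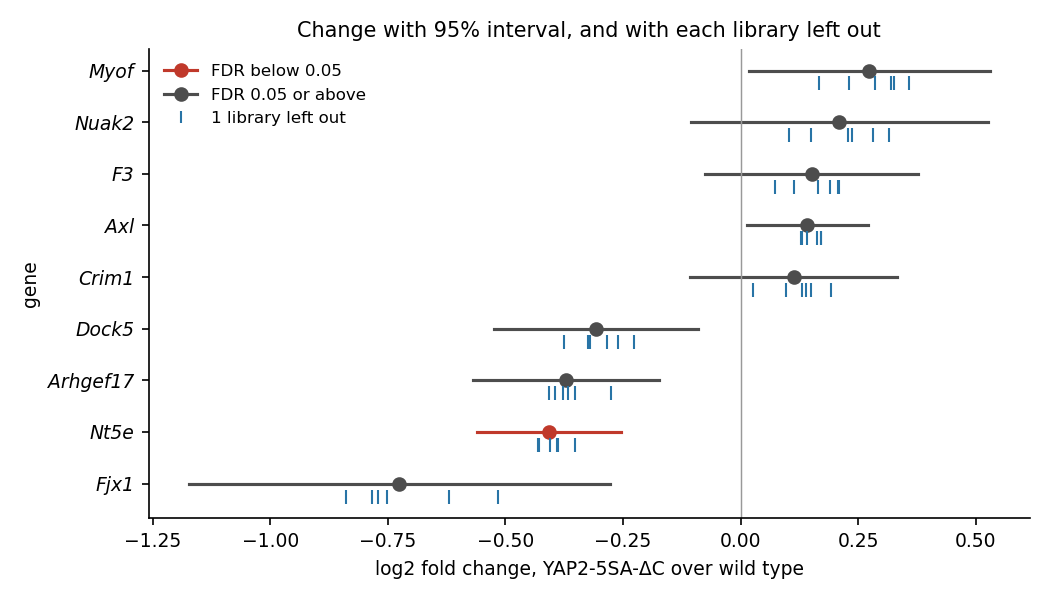
Log2 fold change of TG over WT for the 9 tested target genes (points) with 95% intervals of the quasi-likelihood test (lines, red for the 1 gene with an FDR below 0.05), and the value with each library left out (blue ticks). *Fjx1*, *Nt5e*, *Arhgef17* and *Dock5* lie below 0 with every library left out, and the ticks of the 5 higher genes all stay above 0.

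TG replicate 2 held the highest TG value of 5 genes, namely *Axl*, *F3*, *Crim1*, *Nuak2* and *Myof*, and the lowest TG value of 3 genes, *Nt5e*, *Dock5* and *Arhgef17*. The exception was *Fjx1*, which was lowest in TG replicate 3. TG replicate 2 was thus the most extreme TG library, in the direction of the fold change, in 8 of the 9 genes, and it was so in 54.1% of all genes tested. Among the TG libraries it also held the lowest sum of hair shaft and the highest sums of basal, suprabasal and fibroblast markers. Without this library the log2 fold changes kept their signs in all 9 genes and *Nt5e* remained called (−0.35, FDR = 0.0368).

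Levels were compared between genes as CPM per kilobase of exon. *Axl* was the highest in WT skin with 24.6 ± 0.60, followed by *F3* with 13.0 ± 0.76, *Crim1* with 9.60 ± 1.09, *Myof* with 7.81 ± 0.45 and *Nt5e* with 5.87 ± 0.21 CPM per kilobase (SD, n = 3). Below these lay *Arhgef17* (4.71 ± 0.10), *Nuak2* (3.18 ± 0.47), *Dock5* (3.07 ± 0.14) and *Fjx1* (2.63 ± 0.59), and *Ankrd1* was last with 0.23 ± 0.14 CPM per kilobase. The WT libraries of *Nuak2* and *Dock5* overlapped, as did those of *Dock5* and *Fjx1*, so these neighbours do not differ beyond their spread. In TG skin the order was the same except that *Nuak2* (3.67 ± 0.35) stood above *Arhgef17* (3.64 ± 0.36), with overlapping libraries, and *Crim1* (10.4 ± 0.50) and *Myof* (9.44 ± 1.38) overlapped too.

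**Figure D4:**
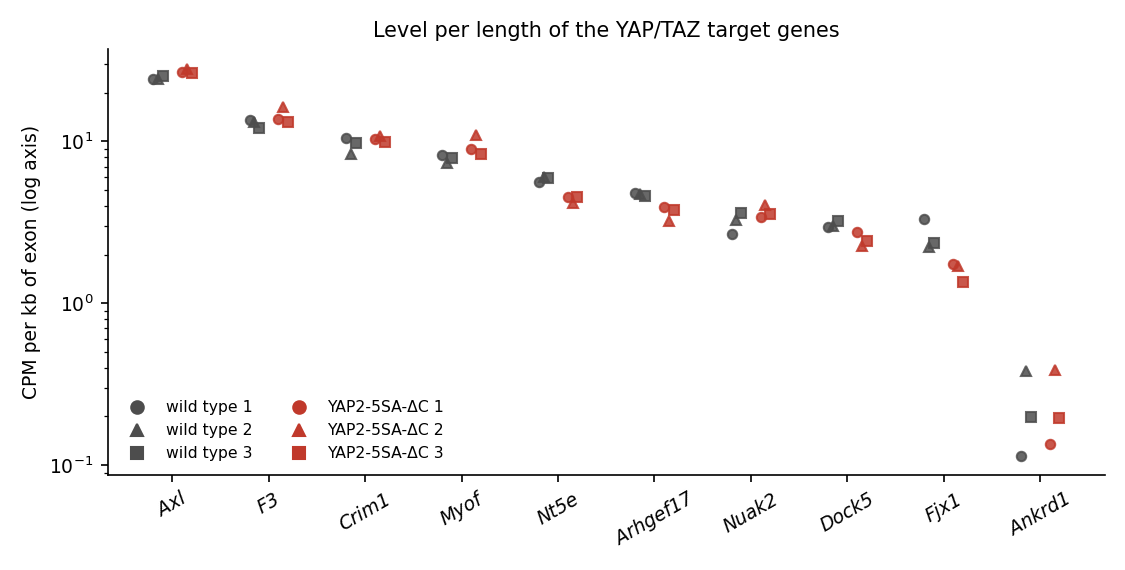
Level of the 10 target genes in CPM per kilobase of exon on a log axis, for each WT (grey) and TG (red) library, ordered by the WT level. *Axl* leads with 24.6 CPM per kilobase in WT skin and *Ankrd1* is last with 0.23.

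The other 12 genes of the same target signature, a list also chosen with earlier results of these data known, were set beside these 10. Of them 11 were tested, 5 higher and 6 lower by value, with a median log2 fold change of −0.01. One, *Ctgf* (the CCN family member Ccn2), fell by 0.82 on the log2 scale (SE 0.10, FDR = 0.0327), and none passed as higher, where 1.91% of all genes were called in either direction. The FDR of *Ctgf* was 0.0510, 0.177 and 0.132 without WT replicates 1, 2 and 3, 0.0577 and 0.0906 without TG replicates 1 and 3, and 0.0131 without TG replicate 2. The next by size were *Gadd45a*, a stress-induced growth arrest gene, at −0.74 (SE 0.17, FDR = 0.0621) and *Igfbp3*, a carrier of insulin-like growth factors, at 0.66 (SE 0.23, FDR = 0.131), neither past the threshold. Without TG replicate 2 the value of *Igfbp3* was 0.39. In these other genes the libraries did not overlap in 3 higher and 2 lower genes of the 11, beside 15.5% and 18.2% of all genes.

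The genes that encode the coactivators, their TEAD partners and the competing VGLL cofactors were counted in the same way. Of 10 genes 8 were tested, 6 higher and 2 lower by value, and 0 were called by the quasi-likelihood test, the likelihood-ratio test, voom or DESeq2. At an unadjusted p below 0.05, 1 was higher, *Tead4*, with a log2 fold change of 0.43 (SE 0.15, FDR = 0.138), and 0.28 without TG replicate 2. This 1 of 8 is near the 13.3% of all genes that passed as higher. *Vgll3*, a cofactor that binds TEAD in place of YAP, had 0.34 (SE 0.21, FDR = 0.342), and 0.078 without TG replicate 2.

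In whole skin, fewer cells of a type and less RNA per cell cannot be told apart, and several marker lists differed between the groups by value. Over all genes tested 1.44% were called as higher and 0.464% as lower, and 13.3% and 13.0% passed an unadjusted p below 0.05 as higher and as lower. The 7 basal keratinocyte markers summed to 91.2% to 111% of the WT mean in WT and to 150% to 191% in TG skin. Of these markers 7 of 7 were higher by value, 5 at an unadjusted p below 0.05, and 1, *Krt14*, was called. Macrophage markers summed to 93.1% to 107% in WT and 135% to 147% in TG libraries. Of these markers 5 of 5 were higher at an unadjusted p below 0.05, and 2, *Csf1r* and *Mrc1*, were called. The 6 hair shaft and inner root sheath markers found summed to 87.6% to 109% in WT and to 46.4%, 9.51% and 59.6% in TG replicates 1, 2 and 3, with 6 of 6 lower by value. The quasi-likelihood test of edgeR called 0 of these 6 hair markers (5 at an unadjusted p below 0.05), while the likelihood-ratio test called 5, beside 4.87% of all genes as lower. Without TG replicate 2 the quasi-likelihood test called 5 hair markers as lower, beside 2.74% of all genes, and 3 macrophage, 2 basal and 1 suprabasal markers as higher, beside 2.73% of all genes. Without WT replicate 2, WT replicate 3 or TG replicate 3 that test called 0 genes of any kind, so the marker calls were lost. Suprabasal markers summed to 87.7% to 108% in WT and reached 212% in TG replicate 2, with 128% and 115% in TG replicates 1 and 3, and 5 of 5 were higher by value. Skeletal muscle markers varied widely within WT, from 29.4% to 150%, and lay at 27.3% to 72.6% in TG skin. Endothelial markers summed to 89.4% to 106% in WT and 107% to 128% in TG skin, with 6 of 6 higher by value and 0 called (1 at an unadjusted p below 0.05). Fibroblast markers summed to 84.1% to 114% in WT and 109% to 142% in TG skin, with 6 of 6 higher by value and 0 called (3 at an unadjusted p below 0.05). The 6 smooth muscle and pericyte markers were split, 3 higher and 3 lower by value, with sums between 91.3% and 110% in every library. Of these markers 0 were called, while 3 as higher and 2 as lower passed an unadjusted p below 0.05, so the sum hides opposite differences. Adipocyte and Schwann cell markers lay between 74.1% and 123% of the WT mean and overlapped between the groups. The part of these cell types in the values of the 10 target genes was not tested.

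**Figure D5:**
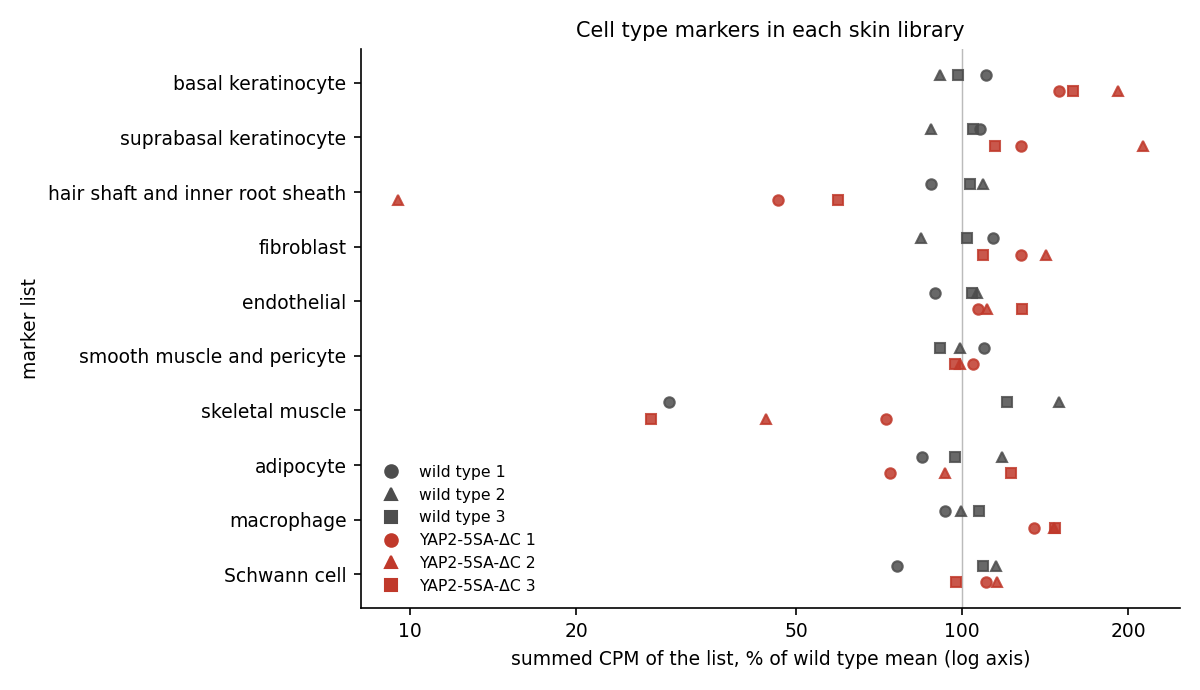
Summed CPM of each list of cell type markers in each library, as a percentage of the WT mean of the list, on a log axis, with WT in grey and TG in red. The sums of the basal keratinocyte, suprabasal, macrophage and, by a narrow margin, endothelial markers are higher in all 3 TG libraries than in any WT library, and those of the hair shaft and inner root sheath markers are lower, with TG replicate 2 at 9.51%.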

How the data were processed

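Paired-end reads were aligned by the authors to the GRCm38 genome with TopHat2 (2.0.12 in the submitters' processing notes) and Bowtie2 2.1.0, and HTSeq-count gave the uniquely mapped reads of each Ensembl gene. The annotation release and strand setting are not given in the sources used here. The labels name a stranded kit for total RNA and also call the libraries mRNA libraries. The deposited values are raw counts of 26579 genes in 6 libraries, with 11225705 to 19505036 counts each.

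Genes reaching 1 CPM in 3 or more libraries (15102 genes) were scaled with TMM and tested in R 4.3.3 with glmQLFit and glmQLFTest of edgeR 4.0.16, with genotype as the only term. P-values were adjusted by Benjamini-Hochberg over all genes tested, with a threshold of 0.05. The alternatives were the likelihood-ratio test of edgeR, voom (limma 3.58.1), DESeq2 1.42.0, other scalings and filters, a fit with the replicate number as a block, and fits without each library in turn. The tests were tested on simulated data first. Gene positions and exon lengths came from GENCODE M21, which lacks 558 of the matrix identifiers, and promoters came from RefSeq (GRCm38.p6).

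The 10 target genes and all lists were chosen with earlier results of these data known. All 10 were named, and of the other signature and the YAP, TAZ, TEAD and VGLL genes those past 0.05 and the 2 largest other changes by size, *Yap1* as the check of the transgene, and at most the 3 most abundant markers of a cell type. The markers *Flg* and *Krt85* were not analysed here.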

Additional observations from a re-analysis of the deposited data

How the results depend on the processing

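The direction of each of the 9 tested target genes was kept under every alternative run, and the median log2 fold change over all genes moved by less than 0.1 under each scaling. The number of target genes called was 1, and it was 2 with the likelihood-ratio test (*Nt5e* and *Fjx1*), 3 with DESeq2 (*Nt5e*, *Fjx1* and *Arhgef17*), 0 with a replicate block and 0 to 1 with each library left out (1 only without TG replicate 2). The number of other signature genes called was 1, and it was 3 with the likelihood-ratio test, 3 with DESeq2, 0 with the replicate block and 0 to 1 with each library left out (again 1 only without TG replicate 2). No YAP, TAZ, TEAD or VGLL gene was called in any of these. The median log2 fold change of the target genes, 0.11, was 0.13 with upper-quartile scaling, 0.070 with no filter, which brings in *Ankrd1*, and 0.026 to 0.15 with each library left out (0.026 without WT replicate 2 and 0.072 without TG replicate 2). Over all genes, 288 were called, against 1568 with the likelihood-ratio test, 1590 with DESeq2, 497 with no filter 142 without WT replicate 1, 83 without TG replicate 1 and 817 without TG replicate 2. The quasi-likelihood test of edgeR called 0 genes without WT replicate 2, WT replicate 3 or TG replicate 3 (2726, 2844 and 3691 at an unadjusted p below 0.05). Same-numbered libraries did not deviate together (correlations of −0.343, −0.244 and −0.0624). Each deviation was taken from a mean of only 3 libraries, so these values cannot decide whether the numbers pair the mice. With the replicate block, the quasi-likelihood test of edgeR called 0 genes (2949 at an unadjusted p below 0.05) and *Nt5e* had an FDR of 0.170. The cause of these differences was not tested. *Ankrd1* rests on 6 to 21 counts in a library, and the smallest library, WT replicate 3, gave 78 counts for *Fjx1*.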
